A study of Mus musculus with 4 samples.

Results

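The genes described here encode the Sm core proteins of the spliceosomal small nuclear ribonucleoproteins (snRNPs) and were measured in mouse spermatocytes with and without Tdrd6. The set consists of Snrpb, Snrpn, Snrpd1, Snrpd2, Snrpd3, Snrpe, Snrpf and Snrpg, taken by symbol and matched to Ensembl gene identifiers. These are 8 of the 37718 gene rows, with 33 of 207562 introns and 109 of 605144 exon segments and splice junctions. None of the 8 genes, and none of their introns, exon segments and junctions with enough counts for an adjusted p, passed the test between genotypes at a false discovery rate of 0.1. The values behind these counts are given gene by gene.

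The Sm proteins form a ring around the Sm site of the U snRNAs, and this ring is the common core of the snRNPs that splice pre-mRNA. SmB and SmD3, SmD1 and SmD2, and SmE, SmF and SmG enter the ring as preformed building blocks, which the chaperone pICln receives and the SMN complex loads onto the snRNA in the cytoplasm. SmB, SmD1 and SmD3 carry arginine- and glycine-rich tails that the PRMT5 methylosome dimethylates symmetrically, and Tudor domains, of which TDRD6 has several, bind such arginines. SmN, the product of the imprinted Snrpn locus, can take the place of SmB and is best known from brain.

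RNA was sequenced from 4 samples, 2 of Tdrd6+/- and 2 of Tdrd6-/- testes, all from animals aged 20 days postpartum and each pooled from at least 4 mice. Cells positive for human CD4 (hCD4) were isolated with magnetic beads, and hCD4 was expressed from the endogenous Tdrd6 promoter, so that the controls also carried a modified Tdrd6 allele and no Tdrd6+/+ sample was compared. The libraries were depleted of rRNA and prepared with a directional kit. The question was whether splicing in late prophase spermatocytes changes when TDRD6 is lost, and the Sm genes supply the parts of the machinery concerned. Nothing in the sources used here says whether the 2 samples of a genotype came from separate preparations, and p-values measure the spread between these samples.

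Gene rows summed to between 26454326 and 31388750 counts per sample and introns to between 9603669 and 13937818. Tdrd6 itself, the check of the labels, was at 1268 and 1411 CPM (counts after scaling for depth) in Tdrd6+/- and at 11.3 and 12.5 CPM in Tdrd6-/-. The 7 spermatocyte markers (Sycp1, Sycp3, Piwil1, Ccna1, Pou5f2, Mybl1, Spag6l) summed to 2773 and 2691 CPM in Tdrd6+/- and to 2565 and 2739 CPM in Tdrd6-/-, but 2 of the 7 passed the test in opposite directions. Sycp1, of the synaptonemal complex, was 1.52-fold higher in Tdrd6-/- (adjusted p = 0.047) and Piwil1, of the piRNA pathway, was at 0.74-fold (adjusted p = 0.077, edgeR quasi-likelihood test for both). The 6 round spermatid markers were far lower but differed between genotypes, with sums of 9.20 and 13.1 CPM against 21.7 and 19.7 CPM, 2 of 6 (Acrv1 and Spaca1, the only 2 with enough counts to be tested) passing the test and Prm1 at 0 in 3 of the 4 samples. Sertoli cell markers summed to 33.8 to 38.5 CPM in Tdrd6+/- and 37.7 to 44.1 CPM in Tdrd6-/-, Leydig cell markers to 17.1 to 21.2 CPM and 19.8 to 22.1 CPM, and immune cell markers to 2.40 to 2.94 CPM and 2.15 to 4.11 CPM, with no member of these lists passing the test. Of the Sertoli cell markers, Sox9 was at 0.58-fold in Tdrd6-/- (unadjusted p = 0.030, edgeR quasi-likelihood test), while Wt1, Amh, Cldn11 and Rhox5 had positive log2 fold changes. Markers of spermatogonia and early meiosis summed to 15.2 and 16.4 CPM in Tdrd6+/- and to 18.8 and 19.9 CPM in Tdrd6-/-, with 0 of 5 passing by the edgeR quasi-likelihood test and 1, Stra8, at an unadjusted p under 0.05. The part that such differences in cell content have in the values below was not tested, and in bulk RNA fewer cells of a type and less RNA per cell cannot be told apart.

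Of the genes for SmB and SmN, which can hold the same place in the ring, Snrpb was the more abundant as RNA and Snrpn was close to absent. These counts do not measure protein. Snrpb (ENSMUSG00000027404; chr2:130171414-130179403, minus strand, mm10) was at 77 and 61.6 CPM in Tdrd6+/- and at 64.2 and 81.6 CPM in Tdrd6-/-. Each genotype had a higher and a lower sample and the groups overlapped, with means of 69.3 ± 10.9 and 72.9 ± 12.3 CPM (SD, n = 2 each). The fitted log2 fold change, Tdrd6-/- over Tdrd6+/-, was 0.07 ± 0.15 (SE), with an adjusted p of 0.90 by the edgeR quasi-likelihood test with Benjamini-Hochberg adjustment. Its 95% interval ran from 0.84-fold to 1.31-fold, which bounds the size of a difference that these samples could hide.

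The annotation used here (GENCODE M21) gives Snrpb a single coding transcript and an alternative exon in a transcript that it marks for nonsense-mediated decay. The exon lies at chr2:130176629-130176752 (mm10, minus strand), is 124 bases long and holds an in-frame stop after 70 codons, where the coding transcript has 231. The sequences that follow, from the M21 transcripts, 5′ to 3′, are the 15 bases on each side of the 3 junctions whose counts, given with the junctions, decide its inclusion, and the stop with its surroundings. Capitals mark the alternative exon in the first 2 and the stop codon in the last.
Upstream exon to alternative exon: gttcaggaagatcaaGTGTGTGAGGGGGGA
Alternative exon to downstream exon: CTGACCCTCTTCAGGgccaaagaactccaa
Upstream exon to downstream exon: gttcaggaagatcaagccaaagaactccaa
First in-frame stop: tttgtaaagctgTAGcctacagggctc

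Snrpn, for SmN, was counted in a row that the authors' counting had merged with ENSMUSG00000095746 (row ENSMUSG00000000948+ENSMUSG00000095746). Its counts were 16 and 15 in the Tdrd6+/- samples against 13 and 19 in the Tdrd6-/- samples, or 0.41 to 0.61 CPM, and the groups overlapped. Its log2 fold change was -0.19 ± 0.47 (SE; adjusted p = 0.91, edgeR quasi-likelihood test), with an interval from 0.44-fold to 1.73-fold. Of its 11 annotated junctions, 9 had counts, between 3 and 10 each over the 4 samples together. Per kb of exon annotated in M21, which need not be the exon counted for Snrpn, it reached 0.73% and 0.80% of the Snrpb level in Tdrd6+/- and 0.59% and 0.67% in Tdrd6-/-. The genotypes did not overlap in this ratio, but 2 samples against 2 cannot give less than p = 0.33 in a two-sided exact permutation test, and that was the value found. Neuronal markers, from the cells in which SmN is abundant, summed to 2.86 and 2.87 CPM in Tdrd6+/- and to 2.15 and 2.06 CPM in Tdrd6-/-, nearly all from Syt1, with Rbfox3 at 0 in 2 of the 4 samples.

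SmD1 and SmD2 enter the ring as a pair. Snrpd1 (ENSMUSG00000002477; chr18:10617775-10642079, plus strand) was at 33.5 and 33.2 CPM in Tdrd6+/- and at 32.8 and 38.5 CPM in Tdrd6-/-, so that a single Tdrd6-/- sample stood above the others. Its log2 fold change was 0.10 ± 0.16 (SE; adjusted p = 0.87, edgeR quasi-likelihood test). Snrpd2 (ENSMUSG00000040824; chr7:19149722-19153542, plus strand) was at 66.4 and 67.0 CPM in Tdrd6+/- and at 72.3 and 84.4 CPM in Tdrd6-/-. Both Tdrd6-/- samples were above both controls, yet the log2 fold change of 0.23 ± 0.14 (SE) had an adjusted p of 0.50 by the edgeR quasi-likelihood test.

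SmD3 is the partner of SmB. Snrpd3 (ENSMUSG00000020180; chr10:75517551-75537381, plus strand) had the lowest unadjusted p of the 8 genes and was lower in Tdrd6-/-. It was at 20.3 and 24.2 CPM in Tdrd6+/- and at 17.19 and 16.05 CPM in Tdrd6-/-, and the groups did not overlap. The log2 fold change was -0.42 ± 0.18 (SE), or 0.75-fold with a 95% interval from 0.58-fold to 0.97-fold. The unadjusted p of 0.028 became an adjusted p of 0.27 over all 16555 gene rows (edgeR quasi-likelihood test with Benjamini-Hochberg adjustment), so the difference was not called. The first exon of Snrpd3 overlaps Gucd1 on the opposite strand over 232 bases of exon, and Gucd1 held 1506 to 1871 counts per sample.

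SmE, SmF and SmG form the trimer of the ring. In all 3 of their genes the second Tdrd6-/- sample was the highest, as it was in Snrpb, Snrpd1 and Snrpd2, and the part of that library in these values was not tested beyond leaving it out. Snrpe (ENSMUSG00000090553; chr1:133603871-133610291, minus strand) was at 24.31 and 22.02 CPM in Tdrd6+/- and at 21.7 and 31.5 CPM in Tdrd6-/-. Snrpf (ENSMUSG00000020018; chr10:93583029-93589706, minus strand) was at 16.98 and 17.15 CPM in Tdrd6+/- and at 16.05 and 22.51 CPM in Tdrd6-/-. In both genes the first Tdrd6-/- sample was the lowest of the 4 and the groups overlapped, with log2 fold changes of 0.20 ± 0.19 (SE) for Snrpe and 0.18 ± 0.19 (SE) for Snrpf. The adjusted p was 0.72 and 0.77 in that order (edgeR quasi-likelihood test).

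Snrpg (ENSMUSG00000057278; chr6:86371304-86379328, plus strand) was at 7.17 and 6.35 CPM in Tdrd6+/- and at 8.37 and 10.2 CPM in Tdrd6-/-. Both Tdrd6-/- samples were above both controls. The log2 fold change was 0.46 ± 0.22 (SE), the largest positive one of the 8, and the 95% interval from 0.996-fold to 1.90-fold just reached no difference. The adjusted p was 0.37 (edgeR quasi-likelihood test).

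**Figure D1:**
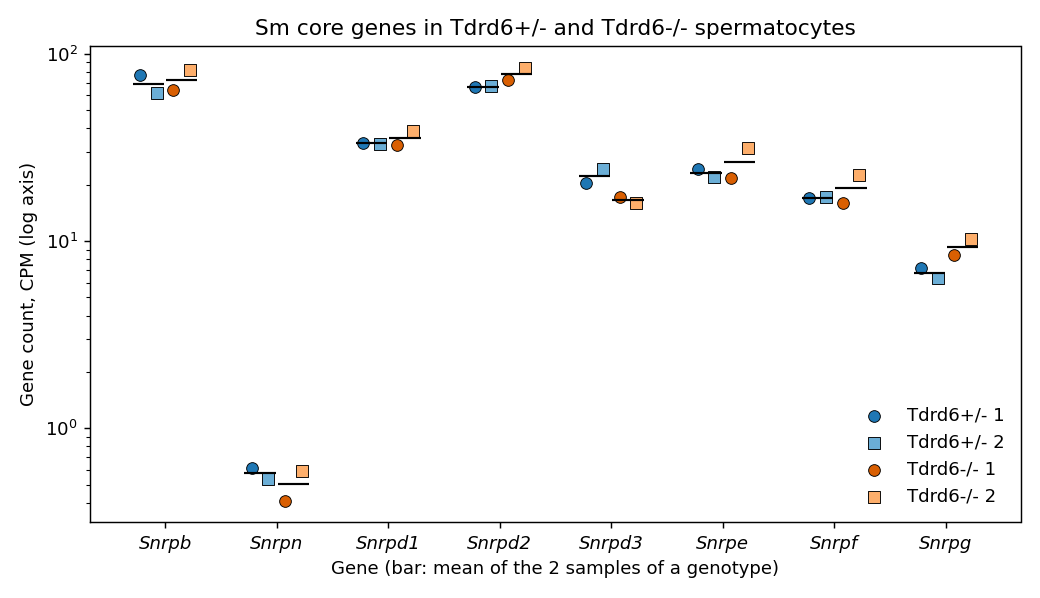
Gene counts of the 8 Sm genes in CPM (log axis), with a point for each sample and a bar for the mean of the 2 samples of a genotype. Snrpn lies between 0.41 and 0.61 CPM, far below the other genes, and only Snrpd2, Snrpd3 and Snrpg have groups that do not overlap.

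Together, 0 of the 8 genes passed the edgeR quasi-likelihood test, against 4.8% of all gene rows tested (794 of 16555; 1.02% higher and 3.78% lower in Tdrd6-/-). One gene, Snrpd3, had an unadjusted p under 0.05, DESeq2 called 0 of the 7 genes to which it gave an adjusted p, and at that unadjusted level 14% of all rows were found. The groups did not overlap in 3 of the 8 genes, against 43.5% of all gene rows. Fitted fold changes were positive in 6 genes and negative in 2, against 51.7% positive over all rows, with a median log2 of 0.14 beside 0.01 over all rows. Without Tdrd6-/- replicate 2 the log2 fold changes were -0.10 for Snrpb, -0.015 for Snrpd1, -0.089 for Snrpe and -0.079 for Snrpf. Those of Snrpd2 (0.13) and Snrpg (0.32) stayed positive. Over all rows 169 were called higher and 625 lower in Tdrd6-/-, and with library totals in place of the trimmed mean of M values (TMM) these were 212 and 378. In simulated counts for these samples (16565 gene rows), 88.5% of 200 gene rows changed by 1 on the log2 scale, each with a mean of at least 100 counts, were found, and smaller changes were not simulated. The simulation gave all rows the same spread between samples beyond counting error.

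**Figure D2:**
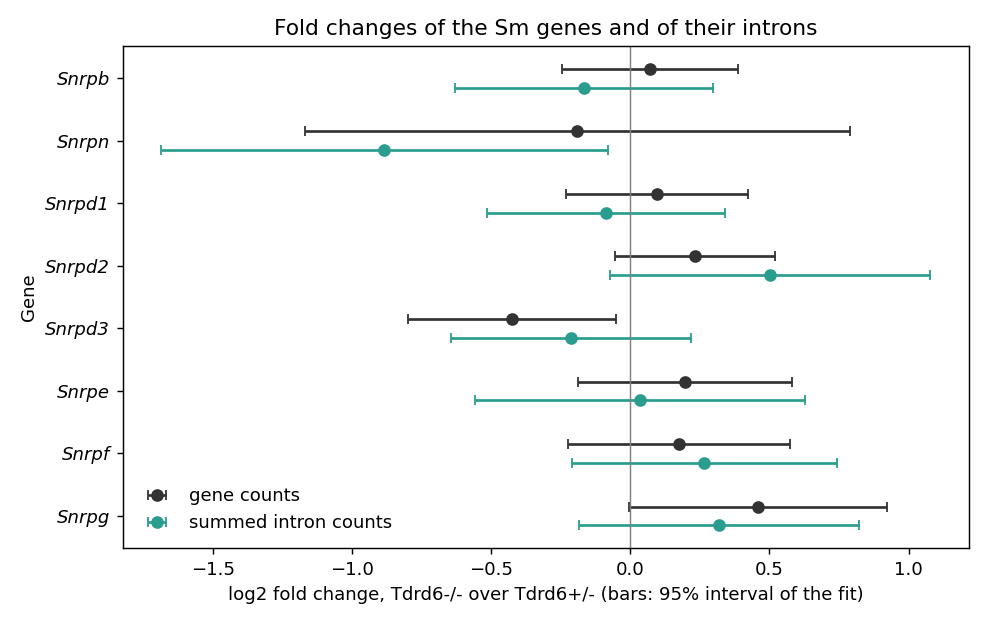
Log2 fold changes, Tdrd6-/- over Tdrd6+/-, of the gene counts (dark) and of the summed intron counts (green) of the 8 Sm genes, with the 95% intervals of the edgeR fit as bars. Intervals that leave out 0 are those of Snrpd3 for gene counts and of Snrpn for introns, and neither passed the adjusted threshold.

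Some of the Sm genes have near copies elsewhere in the genome whose reads could be exchanged with theirs. By a search of the coding sequences (at least 90% identity over at least 80% of the length), Snrpb and Snrpd3 had no such copy among the annotated transcripts. Rows of copies held counts equal to 41.2% of those of Snrpg (Gm8186), 32.9% of those of Snrpf (Gm13092) and 18.3% of those of Snrpe (Snrpert), but to 2.55% for Snrpd1 (Gm14277) and 0.0814% for Snrpd2 (Gm5449), summed over the samples. Copies without a row are left out. A row existed for 1 of 5 copies of Snrpg, 1 of 3 of Snrpf, 1 of 2 each of Snrpe and Snrpd2, and 0 of 1 of Snrpn. Gm10120, 98.9% identical to the coding sequence of Snrpd2, had none, so exchange with Snrpd2 cannot be judged from these counts. Gm8186 was at 3.28 and 2.62 CPM in Tdrd6+/- and at 2.78 and 4.59 CPM in Tdrd6-/-, with a log2 fold change of 0.32 ± 0.29 (SE; adjusted p = 0.71, edgeR quasi-likelihood test). The level of Snrpg, and to a lesser degree of Snrpf and Snrpe, is therefore uncertain where reads could be placed on either. Snrpf also shares 567 bases of exon with Ccdc38 on the opposite strand, which held 25522 to 37657 counts per sample. The last 2 exons of Snrpf make up this overlap and held 328 to 577 and 87 to 164 counts.

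The genes of the ring were far from equally abundant as RNA. Per kb of counted exon, Snrpd2 was highest at 51.1 ± 5.89 CPM (SD over the 4 samples), and no sample of any other gene reached its lowest value of 46.7. Snrpd1 at 40.2 ± 3.14 and Snrpb at 36.0 ± 4.90 CPM per kb came next and overlapped. Snrpf (21.1 ± 3.40) and Snrpe (18.1 ± 3.32) overlapped with each other, and so did Snrpg (7.61 ± 1.59) and Snrpd3 (6.41 ± 1.21). Snrpn was last at 0.25 ± 0.042 CPM per kb. Its counted segments were not placed, so its divisor was the exon length in M21, 2159 bases. For Snrpd3 the length decides its place, because its last exon of 2121 bases held 83 to 111 counts per sample where its second exon of 147 bases held 378 to 538.

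Counts of reads across a junction were not divided by a length, but they differed among the junctions of a gene. In Snrpd3 the second junction held 183 to 250 counts per sample and the third 62 to 82. By the median over the annotated junctions of the coding transcript, Snrpd2 was again first at 23.98 ± 3.74 CPM per junction, followed by Snrpd1 at 10.1 ± 0.91 and Snrpb at 9.29 ± 1.59, and these 2 overlapped. Snrpe (6.09 ± 1.22) and Snrpd3 (5.55 ± 1.73) overlapped, so that by this measure Snrpd3 stood level with Snrpe. Snrpf was at 2.95 ± 0.89 and Snrpg at 1.44 ± 0.23 CPM per junction. The order of Snrpf and Snrpe was thus not the same on the 2 scales, but the 3 annotated junctions of Snrpf were unequal. They held 58 to 77, 245 to 434 and 65 to 135 counts per sample in the order of the transcript. The place of Snrpf therefore depends on which junction is taken, and its unannotated junctions were left out.

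Of the genes that modify the Sm proteins or load the ring, none passed the test either. The list held 20 genes, namely the methylosome (Prmt5, Wdr77, Clns1a, Riok1, Copr5) and Prmt7, the SMN complex (Smn1, Gemin2, Ddx20, Gemin4, Gemin5, Gemin6, Gemin7, Gemin8, Strap), snRNP import and cap methylation (Snupn, Tgs1), the Cajal body protein coilin (Coil), and Lsm10 and Lsm11 of the related ring of the U7 snRNP. All 20 were tested, 14 with a positive and 6 with a negative fold change, and the median log2 was 0.10. Over all gene rows, 51.7% had a positive fold change. Gemin4, Coil and Wdr77 were counted in rows merged with other gene identifiers. The edgeR quasi-likelihood test called 0 of 20, as did DESeq2, against 4.8% of all gene rows by the edgeR test, and 1 had an unadjusted p under 0.05, against 14%. The groups did not overlap in 10 of the 20, against 43.5% of all gene rows. That gene was Smn1, for the SMN protein itself, at 9.23 and 10.5 CPM in Tdrd6+/- and at 7.33 and 5.995 CPM in Tdrd6-/-, without overlap. Its log2 fold change was -0.56 ± 0.22 (SE; adjusted p = 0.22, edgeR quasi-likelihood test).

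The next smallest p-values of the list belonged to Clns1a, Tgs1 and Gemin7. Clns1a, for pICln, was at 45.1 and 50.4 CPM in Tdrd6+/- and at 53.6 and 61.2 CPM in Tdrd6-/-, with a log2 fold change of 0.26 ± 0.15 (SE; adjusted p = 0.45, edgeR quasi-likelihood test). Tgs1, the cap hypermethylase, was at 6.22 and 4.99 CPM against 5.59 and 2.97 CPM, and the groups overlapped. Gemin7 was at 14.4 and 14.2 CPM against 14.98 and 18.89 CPM. Prmt5, the methyltransferase, was at 80.3 and 97.2 CPM in Tdrd6+/- and at 86.9 and 87.9 CPM in Tdrd6-/-, a log2 fold change of -0.02 ± 0.14 (SE) with an interval from 0.807-fold to 1.202-fold. Its partner Wdr77 (a row merged with ENSMUSG00000074340) was at 78.4 and 55.1 CPM against 62.5 and 62.4 CPM. Both Tdrd6-/- samples lay within the spread of the controls for these 2 genes. Prmt5 and Wdr77 were named after their values were seen.

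Intron counts of the Sm genes were summed per gene as a measure of unspliced or other intronic RNA. None of the 8 sums passed the edgeR quasi-likelihood test, against 1.42% of all genes tested (214 of 15025; 0.173% higher and 1.25% lower in Tdrd6-/-), while 1 had an unadjusted p under 0.05 and DESeq2 gave an adjusted p only to Snrpd1 and Snrpd3 and called neither. That 1 was Snrpn, with 51 and 38 intron counts in the controls against 25 and 21 in Tdrd6-/-, without overlap. Its log2 fold change was -0.88 ± 0.41 (SE; adjusted p = 0.34, edgeR quasi-likelihood test). The introns of Snrpd2 held 102 and 98 counts in the controls against 115 and 149 in Tdrd6-/-, a log2 fold change of 0.50 ± 0.29 (SE; adjusted p = 0.47, edgeR quasi-likelihood test). Without Tdrd6-/- replicate 1 this change was 0.84 with an adjusted p of 0.081 in the same test, so that the call for Snrpd2 depends on that library. For the other 6 genes the log2 fold changes lay between -0.21 (Snrpd3) and 0.32 (Snrpg). The groups did not overlap in 5 of the 8 sums, against 43.5% of all genes. Scaling the introns by the gene counts moved the median over all genes from 0.07 to -0.23 on the log2 scale, and on that scale the values of Snrpe and Snrpf were -0.26 and -0.050 in place of 0.04 and 0.27.

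Set against the gene count, the Sm genes differed widely in how much intronic RNA they showed. Intron counts per 100 gene counts were lowest in Snrpd2, at 5.03 to 5.87, and in Snrpe, at 8.83 to 16.8. They were 13.3 to 21.9 in Snrpb, 42.3 to 66.5 in Snrpf, 45.3 to 76.6 in Snrpd1, 64.2 to 121 in Snrpg and 88.3 to 121 in Snrpd3. Snrpn had more counts in its introns than in its gene row in every sample. Its introns were those of its own identifier alone, while its gene row was merged with another, so its ratio is not like those of the other genes. These values depend on the length of intron counted and are not levels of retention.

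Summed over the 8 genes, there were 38.5 and 37.4 intron counts per 100 gene counts in Tdrd6+/- and 33.4 and 23.3 in Tdrd6-/-. The groups did not overlap, and the exact permutation test gave its smallest value of p = 0.33. In the whole tables the same ratio was 52.7 and 41.9 in Tdrd6+/- and 42.5 and 30.6 in Tdrd6-/-, so that Tdrd6-/- replicate 2 was lowest in both. Without Tdrd6-/- replicate 1 the log2 ratio of the Sm genes moved from -0.42 to -0.70, and without Tdrd6-/- replicate 2 to -0.185. Taken singly, the groups did not overlap in 3 of the 8 genes, all lower in Tdrd6-/-: Snrpb (21.9 and 19.9 against 15.01 and 13.28), Snrpd1 (76.6 and 75.9 against 65.5 and 45.3) and Snrpn (318.8 and 253.3 against 192.3 and 110.5). The share of all genes without overlap in this ratio was not computed, so these 3 cannot be set apart from other genes. For Snrpn the ratio rests on 13 to 19 gene counts per sample, in the merged row.

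**Figure D3:**
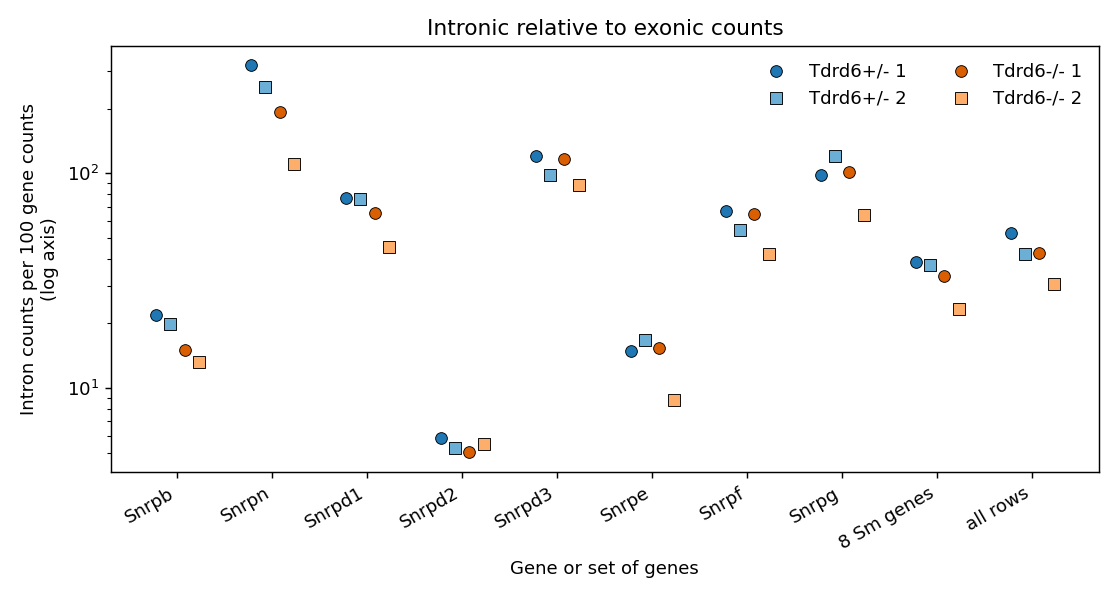
Intron counts per 100 gene counts (log axis) for each Sm gene, for the 8 genes summed and for all rows of the tables, with a point for each sample. Tdrd6-/- replicate 2 is the lowest sample for the 8 genes (23.3) and for all rows (30.6).

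The use of single introns was compared by a DESeq2 refit of the study's intron model, which sets an intron against the other introns of its gene. The study's own run reported more introns at the same false discovery rate, so the calls below are not its calls. Of the 33 introns, 26 had at least 10 counts over the 4 samples and were fitted, and 9 passed the filter on low counts. The DESeq2 likelihood ratio test called 0 of these 9, against 1.94% of all introns that passed the filter (561 of 28903; 0.716% higher and 1.22% lower in Tdrd6-/-), and the other 17 could not be called by it. The usage test of edgeR called 0 of the 26. In simulated counts, 68% of 200 introns changed by 1 on the log2 scale were found (30857 introns), each with a mean of at least 100 counts. Changed introns were drawn only from those holding the smaller part of their gene's intron counts, and all had the same simulated spread between samples. The rate therefore does not cover introns that dominate their gene, such as intron 2 of Snrpd3. At an unadjusted p under 0.05 there was 1, intron 4 of Snrpb (numbered from the lowest coordinate). The groups did not overlap in their share of the gene's intron counts for 11 of the 26, against 38.4% of all introns fitted.

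Intron 4 of Snrpb, 1187 bases long and just downstream of the alternative exon, held 93 and 87 counts in the controls against 53 and 53 in Tdrd6-/-. This was 21.04% and 25.51% of the gene's intron counts against 17.4% and 15.3%, a log2 difference in usage of -0.63 ± 0.31 (SE). Its mean count was below the filter and it has no adjusted p. The intron with the most counts in Snrpb was intron 6, the first in the transcript, with 118 and 105 counts in the controls against 99 and 115 in Tdrd6-/-. It made up 26.7% and 30.8% of the intron counts against 32.5% and 33.1% (log2 difference 0.28 ± 0.26, SE). Per kb of its length, intron 2 of Snrpb was the densest of the gene, at 197 counts on average beside 30.7 to 106 in the others.

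In the other genes with known positions the highest intron was the first of the transcript in Snrpd1 and Snrpg, the second in Snrpd2, Snrpd3 and Snrpf, and the last in Snrpe. Intron 1 of Snrpd1 held 440 and 485 counts in the controls against 419 and 359 in Tdrd6-/- (log2 difference in usage -0.28 ± 0.20, SE). The adjusted p was 0.72 by the DESeq2 likelihood ratio test. Intron 2 of Snrpd3, the longest of the set at 12716 bases, held 486 and 519 counts against 494 and 354, which was between 75.5% and 78.1% of the gene's intron counts in every sample. Intron 1 of Snrpe held 58 and 67 counts against 75 and 69, or 61.1% and 65.0% of the intron counts against 71.4% and 77.5%, with a log2 difference of 0.76 ± 0.40 (SE) and too few counts to pass the filter. Intron 2 of Snrpd2 (55 and 54 counts against 57 and 76), intron 2 of Snrpf (139 and 118 against 180 and 117) and intron 1 of Snrpg (122 and 133 against 176 and 136) had log2 differences between -0.24 and 0.08. Intron 8 of Snrpn held 19 and 10 counts against 7 and 16, and its share of the gene's intron counts overlapped between the genotypes.

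Exon segments and junctions were compared in the same way with the rest of their gene. Here too the study's own run reported more features at this false discovery rate than the refit called. Of 109 such features, 89 had at least 10 counts, and the 79 of them outside Snrpn were fitted, since the study's model leaves out merged genes. Of these, 62 passed the filter on low counts, and the junctions of the Snrpb alternative exon were among those that did not. The DESeq2 likelihood ratio test called 0 of the 62, against 0.221% of all features that passed the filter (327 of 147710; 0.148% higher and 0.0731% lower in Tdrd6-/-), and edgeR's usage test called 0 of the 79. In simulated counts, 38.5% of 200 such features changed by 1 on the log2 scale were found (35486 features), each with a mean of at least 100 counts. Changed features were drawn only from those holding a minor part of their gene's count, again with the same simulated spread for all. The rate therefore does not cover features such as the second exon of Snrpd2, which held most of its gene's count. An unadjusted p under 0.05 was found for 2, the second exon of Snrpd3 and an unannotated junction of Snrpd1. The groups did not overlap in their share of the gene count for 26 of the 79, against 34.9% of all features fitted.

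Most Snrpb RNA skipped the alternative exon, shown above with its junctions, in both genotypes. The skipping junction was counted 305 and 273 times in the controls against 309 and 437 in Tdrd6-/-. The junction into it had 14 and 17 counts against 11 and 15, and the junction out of it 21 and 30 against 33 and 28. Inclusion, the mean of these 2 over that mean plus the skipping count, was 5.43% and 7.93% in Tdrd6+/- and 6.65% and 4.69% in Tdrd6-/-. The groups overlapped, and the difference of -1.01 percentage points had p = 0.67 in the two-sided exact permutation test. The annotation marks the form with the exon for nonsense-mediated decay, and these counts cannot tell less inclusion from more decay.

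Each side of the exon can be read as a share of 2 competing junctions. On the downstream side the share was 6.44% (Wilson 95% interval 4.25% to 9.65%) and 9.90% (7.02% to 13.8%) in Tdrd6+/- and 9.65% (6.95% to 13.2%) and 6.02% (4.20% to 8.57%) in Tdrd6-/-. On the upstream side it was 4.39% (2.63% to 7.23%) and 5.86% (3.69% to 9.19%) against 3.44% (1.93% to 6.05%) and 3.32% (2.02% to 5.40%). The genotypes did not overlap on the upstream side (exact permutation p = 0.33, the smallest possible), but all 4 intervals did, and they cover counting error only. A further annotated junction into a form of the exon that starts 2 bases later had 0 counts in every sample. Within the exon itself the main segment held 33 and 57 counts against 53 and 54, and the 2-base segment at its edge 16 and 21 against 21 and 19.

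**Figure D4:**
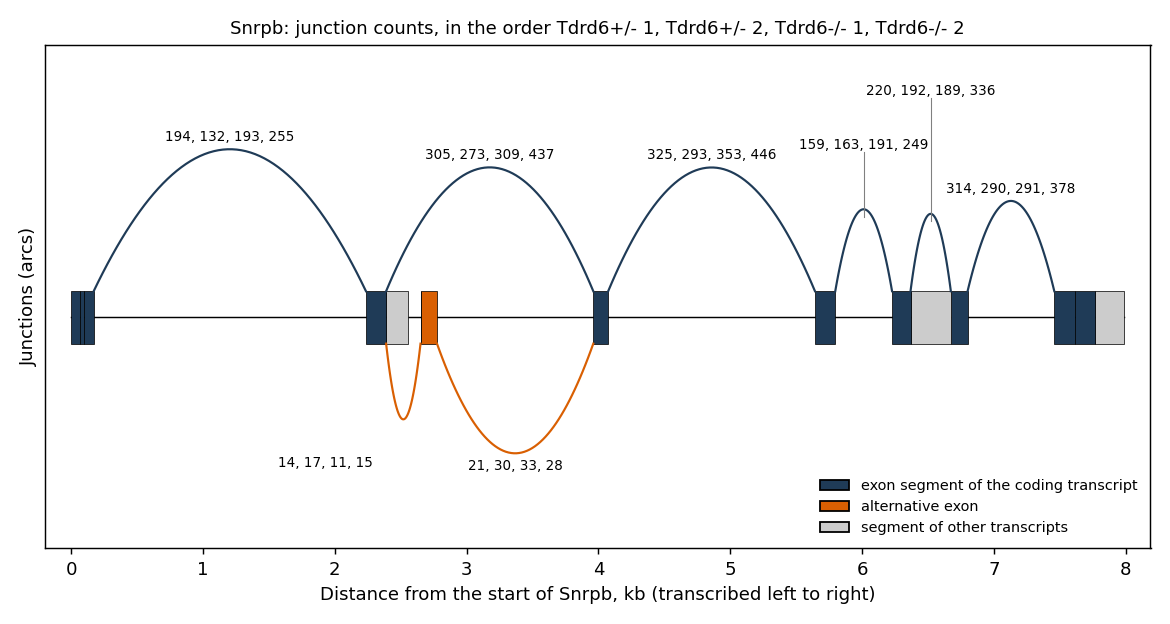
Exon segments (boxes) and junctions (arcs) of Snrpb by distance from the gene's start in kb, with the counts of each junction in the 4 samples in the order of the title. The junctions of the alternative exon, drawn below, have 11 to 33 counts each where the junction that skips it has 273 to 437.

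Other parts of Snrpb that differ between its transcripts were low. The segment between the fifth and the sixth exon of the coding transcript, kept in a retained-intron transcript, had 77 and 82 counts in the controls against 95 and 93 in Tdrd6-/-, where the junction that removes it had 220 and 192 against 189 and 336. Another segment, which extends the second exon downstream in a transcript of its own, had 53 and 42 counts against 42 and 47. The 3′ extension at the end of the gene had 4 and 2 counts against 1 and 3. Of these, none had an unadjusted p under 0.05 (DESeq2 likelihood ratio test), and the lowest in the gene was 0.082, for a segment of the first exon with 145 and 122 counts against 191 and 218.

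Splicing of Snrpf showed a junction that is not in the annotation and that was more frequent than the annotated one at the start of the gene. It had 142 and 149 counts in the controls against 159 and 271 in Tdrd6-/-, while the junction of the first and second annotated exons (intron chr10:93588124-93589538) had 58 and 59 against 67 and 77. The ratio of the first to the second was 2.45 and 2.53 in Tdrd6+/- and 2.37 and 3.52 in Tdrd6-/-, and the groups overlapped. The first annotated exon held 68 and 68 counts against 82 and 106 and the second 408 and 436 against 462 and 680. The files number unannotated junctions but do not give their ends, so where this one starts was not determined here. Besides Ccdc38, 4933408J17Rik overlaps Snrpf on the opposite strand, over 168 bases of exon and with 36 to 48 counts per sample. Whether the more frequent unannotated junction belongs to Snrpf or to one of these genes was not tested. The usage of this junction did not pass the test (log2 difference 0.20 ± 0.20, SE; adjusted p = 1, DESeq2 likelihood ratio test). A second unannotated junction of Snrpf had 13 and 9 counts against 16 and 19.

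Snrpd1 also had an unannotated junction, with 40 and 95 counts in the controls against 44 and 56 in Tdrd6-/-. As a share of the gene count it was 4.56% and 10.3% against 4.24% and 4.54%, so that the second Tdrd6+/- sample stood apart from the other 3. Its log2 difference in usage of -0.75 ± 0.36 (SE) rests on that sample, and without Tdrd6+/- replicate 2 it was -0.055 (-1.32 without Tdrd6+/- replicate 1). The second exon of Snrpd3 held 398 and 538 counts in the controls against 378 and 384 in Tdrd6-/-, or 74.7% and 79.6% of the gene count against 69.5% and 74.7%. That is a log2 difference of -0.40 ± 0.19 (SE; adjusted p = 1, DESeq2 likelihood ratio test), and the groups overlapped by a narrow margin. In Snrpe, an annotated exon-skipping junction had 3 and 0 counts in the controls against 0 and 1 in Tdrd6-/-. The other annotated junction that shares its end had 305 to 468.

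The genes whose levels followed Snrpb most closely over the 4 samples were Ifi27, Wdr55 and Cryz. Likeness was the root-mean-square difference in log2 CPM, each gene centred on its own mean, over 10638 other gene rows with a mean of at least 100 counts. It was 0.0089 for Ifi27, 0.011 for Wdr55 and 0.014 for Cryz, beside a median of 0.21. With only 4 samples many genes come close by this measure, and the nearest Sm genes, Snrpe at 0.11 and Snrpd1 at 0.12, ranked 905 and 1190. Snrpd3, which was lower in both Tdrd6-/- samples, was at 0.36 and ranked 9185.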

How the data were processed

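The deposited files hold counts per gene row, exon segment, splice junction and numbered intron, made by the authors from rRNA-depleted paired-end libraries aligned to mm10 with GSNAP and annotated with Ensembl 75. The submitters' processing notes name bcl2fastq 1.8.4, and the counting program and its strand setting are not given in the sources used here. Whether reads of overlapping genes on opposite strands were kept apart is therefore unknown. In 940 rows of the gene table the authors had joined several gene identifiers. Gene rows summed to 26454326 to 31388750 counts per sample, and intervals on shares cover counting error only.

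Gene counts and summed intron counts of all genes were filtered with filterByExpr, scaled by TMM and fitted with the quasi-likelihood test of edgeR 4.0.16 in R 4.3.3, with Benjamini-Hochberg adjustment over all genes tested and a false discovery rate of 0.1. Usage of introns, and of exon segments and junctions, was tested with the models of DEXSeq and JunctionSeq, which the study used, fitted as likelihood ratio tests in DESeq2 1.42.0 on features with at least 10 counts. Its independent filter set which features received an adjusted p. Ratios were compared by two-sided exact permutation tests over samples. Positions, transcripts and sequences came from GENCODE M21 (mm10) and near copies from blastn 2.17.0. M21 gives the Snrpn identifier to Gm38393 at the same locus, so Snrpn features were not placed. The scripts were tested on simulated data.

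The members and gene lists were chosen with earlier results of these data known. Named features were all 8 genes, in each gene the intron with the most counts, unannotated junctions with at least 10 counts, segments and junctions that differ between Snrpb transcripts, the 4 assembly genes of smallest p, the 3 genes most like Snrpb and any feature that was called. Other features, such as the intron and exons with an unadjusted p under 0.05, were named after their values were seen. Alternatives were DESeq2 or edgeR's other test, other scaling and filters, a replicate block and leaving out each sample.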

Additional observations from a re-analysis of the deposited data

How the results depend on the processing

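The count of called members stayed at 0 for gene expression, the assembly list, intron usage and exon and junction usage under every alternative run, and leaving out 1 sample assumes that the lone sample of a genotype varies like the other group. For summed introns, leaving out each sample gave 0 to 1 called members (Snrpd2, 0.84 without Tdrd6-/- replicate 1), and the log2 intronic to exonic ratio ranged from -0.70 to -0.185. The Snrpn to Snrpb ratio ranged from 0.659% to 0.73% in the same way, and was 0.7583% with no length correction and 0.625% with the longest transcript. The difference in exon inclusion ranged from -2.26 to 0.24 percentage points. Labels number the replicates 1 and 2 in both genotypes, but no label says that a number marks a shared litter or day. Same-numbered samples had deviations with a correlation of -0.11 for gene counts and 0.14 for intron shares, and with 2 pairs this does not settle a pairing. The replicate block moved all calls from 794 to 1046 for genes, from 561 to 881 for introns and from 327 to 306 for exon segments and junctions, and a crossed replicate block, added after seeing the data, gave 1175 gene calls and 279 exon and junction calls, with 0 Sm members called in each.

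Over all genes, calls fell from 794 to 75 with no filter on low counts and to 257 without Tdrd6-/- replicate 2 (1064 without Tdrd6+/- replicate 2), from 214 to 3 summed introns with gene count scaling, and rose from 561 to 1360 introns against the exonic count (1284 with separate scaling, added after seeing the data). These alternatives also turned the sign of values that were not called, and the cause was not tested. Scaling introns by gene counts gave -0.2636 for Snrpe and -0.04994 for Snrpf. Against the exonic count the log2 usage was -0.3853 for intron 8 of Snrpn, -0.2045 for intron 2 of Snrpf, -0.07838 for intron 2 of Snrpd3, -0.369 for intron 6 of Snrpb, -0.4078 for intron 1 of Snrpg and -0.205 for intron 1 of Snrpe. With separate scaling it was -0.0293 for intron 8 of Snrpn, -0.05111 for intron 6 of Snrpb, 0.1303 for intron 2 of Snrpd2 and -0.09623 for intron 1 of Snrpg, and edgeR's usage test gave -0.008448 for intron 2 of Snrpf.

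Leaving out each sample in turn changed the sign of further values. Gene log2 fold changes ranged from -0.1017 to 0.2537 for Snrpb, -0.4688 to 0.04794 for Snrpn, -0.01535 to 0.2082 for Snrpd1, -0.08906 to 0.4421 for Snrpe, -0.07924 to 0.3996 for Snrpf and -0.9158 to 0.006829 for Tgs1. Summed introns ranged from -0.4918 to 0.0988 for Snrpb and -0.06155 to 0.1157 for Snrpe. Intron usage ranged from -0.2822 to 2.754 for intron 8 of Snrpn, -0.4592 to 0.488 for intron 2 of Snrpf, -0.01943 to 0.1893 for intron 2 of Snrpd3 and -0.04497 to 0.1931 for intron 1 of Snrpg. Usage of the unannotated junctions of Snrpf ranged from -0.02686 to 0.6226 for the rarer and -0.01578 to 0.3868 for the more frequent. In Snrpb, the main segment of the alternative exon ranged from -0.5317 to 0.5142, its 2-base segment from -0.4991 to 0.1317, the junction out of it from -0.4055 to 0.3516 and the skipping junction from -0.03158 to 0.1324. Low counts left all introns of Snrpn, Snrpd2 and Snrpe and both junctions of the alternative exon without an adjusted p.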
